A study of Homo sapiens with 33 samples.

Results

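The mitochondrial ribosomal protein genes are described here as the protein-coding genes whose symbol is MRPL or MRPS followed by a number and, in a few, a letter from A to C. This rule found 78 genes, 49 named MRPL and 29 named MRPS, among 19337 protein-coding genes outside the mitochondrial chromosome and 78932 gene identifiers in all. RNA came from HepG2, an established human liver cancer line, with no other agent or allele in the labels. The sorted groups are the fractions G1, S1, S2, S3, S4 and G2, with libraries numbered 2 and 3 in each, so 12 libraries. The group they are set against is bulk HepG2, unsorted, with 3 libraries. The labels call the molecule nuclear RNA in both. A stranded total RNA kit for small inputs served for sorted cells and a stranded mRNA kit for bulk, so kit, sort and cell handling cannot be told apart wherever sorted and bulk are compared. No separate culture is named for any library, and p-values may therefore reflect technical spread alone.

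Mitochondria carry their own ribosome, which translates the small set of mRNAs encoded by the mitochondrial genome, all of them for subunits of the respiratory chain and ATP synthase. Its ribosomal RNAs are mitochondrial, but every protein of it is encoded in the nucleus, translated in the cytosol and imported. Some of these proteins descend from bacterial ribosomal proteins and others have been added in the mitochondrial lineage. The names are historical: the products of MRPS18A and MRPS30 sit in the large subunit of the mammalian mitoribosome, and MRPS36 (KGD4 in RefSeq) is now known as a component of the alpha-ketoglutarate dehydrogenase complex.

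Promoter letters of these genes can be read from RefSeq (GRCh38.p14), where 70 of the 78 had an entry, and 4 windows of 120 bases are shown because they hold the strings that are commoner here than elsewhere, or belong to genes on which later results turn. MRPS26, on chr20:3045932-3046051 (plus strand), is the member with the highest level in sorted libraries. MRPL47, on chr3:179604640-179604759 (minus strand), holds an ETS-type and a YY1-type string. MRPL30, on chr2:99180998-99181117 (plus strand), is among the members that differed most between the replicate numbers. MRPS11, on chr15:88467588-88467707 (plus strand), has a window that lies between its start and that of its divergent neighbour MRPL46. Capitals mark the matches on either strand.
MRPS26: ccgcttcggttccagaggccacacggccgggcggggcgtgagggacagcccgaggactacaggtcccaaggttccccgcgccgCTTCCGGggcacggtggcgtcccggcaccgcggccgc
MRPL47: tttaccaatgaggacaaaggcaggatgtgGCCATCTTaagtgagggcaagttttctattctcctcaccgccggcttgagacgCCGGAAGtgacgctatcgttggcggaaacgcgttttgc
MRPL30: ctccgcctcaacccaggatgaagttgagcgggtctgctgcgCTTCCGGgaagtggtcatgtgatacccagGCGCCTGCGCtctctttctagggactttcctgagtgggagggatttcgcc
MRPS11: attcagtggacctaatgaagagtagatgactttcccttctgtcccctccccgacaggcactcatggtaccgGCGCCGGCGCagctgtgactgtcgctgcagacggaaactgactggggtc

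In the 250 bases before the start, the ETS-type string CCGGAAG stood in 23 of 70 members (32.9%), against 11.95% of 15439 protein-coding promoters. The YY1-type string AAGATGGC stood in 5 of 70 (7.14%), against 1.38% of all. The NRF1-type string (GCGC, any 2 bases, GCGC), named for a factor that drives nuclear genes of the respiratory chain, stood in 9 of 70 (12.9%), against 10.6%. CCAAT stood in 27.1% of members and 34.8% of all promoters, and TATAAA in 4.29% and 9.22%. Both strands were searched, and the ETS-type and YY1-type strings can overlap. A divergent neighbouring gene of any type, long non-coding ones such as MRPS30-DT included, started within 1000 bases of 22 of 70 members (31.4%), against 19.0% of all promoters. These are counts of letters, not of bound sites.

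The sorted libraries held between 6128795 and 18484531 recovered reads (S4 replicate 3 was the deepest) and the bulk libraries between 22340947 and 24423724. Of these reads, 10527 to 46249 per sorted library and 75008 to 83252 per bulk library lay on members, with a median over members of 154 reads in sorted and 768.5 in bulk. Protein-coding genes took 11.2% to 15.6% of the TPM (a transcript's length-scaled share) in sorted libraries and 76.9% to 77.8% in bulk. Levels are therefore given as coding TPM, in which the protein-coding genes outside the mitochondrial chromosome sum to 1000000 in each library. Among 8 HepG2 markers ALB reached 1500 to 4887 TPM in sorted libraries, whereas APOB was at 0.0506 to 0.318 TPM. Markers of fibroblasts summed to 0.0802 to 0.421 TPM and of endothelium to 0.858 to 3.19 TPM in sorted libraries. Of the leukocyte markers LYZ averaged 1896 TPM in bulk, whereas PTPRC, which defines leukocytes, was at 0 to 0.0440 TPM in sorted libraries and at 0 in bulk. As a check of the sort 5 genes were fixed (CCNB1, PLK1, AURKB, CCNE1 and CCNE2), of which only CCNB1 is given here. CCNB1, a mitotic cyclin, averaged 12.2 TPM in G1, 14.7 in S1, 24.9 in S2, 44.3 in S3, 60.6 in S4 and 51.3 in G2.

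Nearly all members were expressed, at levels that spread over orders of magnitude in both kinds of library. In sorted libraries 21 members averaged at least 100 coding TPM and 8 averaged under 10. In bulk 29 averaged at least 100 and 14 averaged under 10. The 10 highest members held 34.5% of the members' summed level in sorted libraries and 37.5% in bulk, and 4 genes were among the 10 highest in both: MRPS26, MRPS34, MRPS18A and MRPL14. Over all 78 members the order of levels in sorted and bulk correlated with a Spearman rho of 0.74, and with 0.64 over the 69 that averaged at least 5 coding TPM in bulk, as a description across genes.

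MRPS26, a small-subunit protein with no bacterial counterpart (chromosome 20, 3046052 to 3048250), was the highest member in sorted libraries, at 457 ± 91.9 coding TPM (SD, n = 12), against 375 ± 9.58 in bulk (SD, n = 3). Its lowest sorted library, S1 replicate 2 with 361, was above the highest sorted library of MRPS34 (345), the next in order. MRPS34, needed for the stability of the small subunit, averaged 274 ± 37.5 in sorted and 205 ± 24.2 in bulk. MRPL52, of the large subunit, averaged 222 ± 30.3 in sorted, where it ranked 3, and 33.6 ± 1.98 in bulk, where it ranked 56. MRPL14, a core protein of the large subunit, led in bulk with 392 ± 5.61 and averaged 146 ± 28.2 in sorted. The other 6 of the 10 highest in sorted were MRPS18A, MRPS9, MRPS21, MRPS15, MRPL27 and MRPL55, at 131 to 206. The other 6 of the 10 highest in bulk were MRPL51, MRPS16, MRPL10, MRPL37, MRPL18 and MRPS35, at 214 to 276, and these averaged 60.1 to 128 in sorted libraries.

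**Figure D1:**
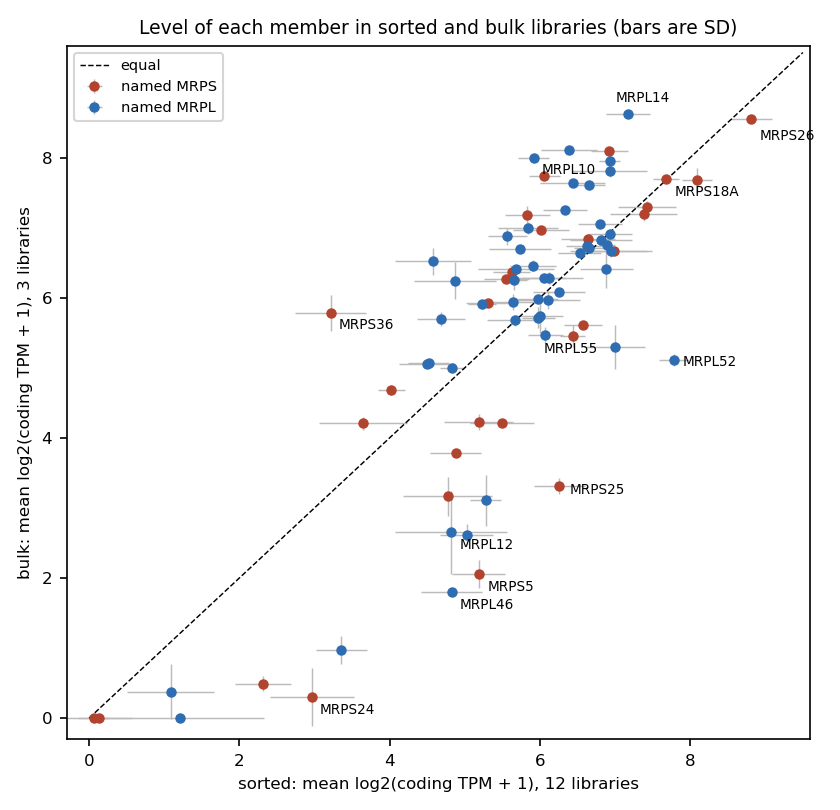
Each point is 1 of the 78 members, with its mean log2(coding TPM + 1) over the 12 sorted libraries on the x axis and over the 3 bulk libraries on the y axis, and bars giving the SD. MRPS26 is at the top right, and a group of members including MRPS5, MRPL46, MRPS25 and MRPL52 lies below the line of equal level, while MRPL10, MRPL14 and MRPS36 lie above it.

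The MRPS18 genes encode 3 related proteins, and they differed widely. MRPS18A, whose product sits in the large subunit, averaged 206 ± 24.8 coding TPM in sorted and 206 ± 3.36 in bulk. MRPS18C, a small-subunit relative, averaged 37.0 ± 11.4 in sorted and 17.8 ± 1.5 in bulk. MRPS18B was listed at 0 in 14 of 15 libraries and at 0.63 in G2 replicate 3. MRPS12, which lines the decoding site of the small subunit, was also listed at 0 in every library but G2 replicate 3, where it had 1.89. A value of 0 can be a failed estimate. Reads were recovered only for genes above 0 in at least 3 libraries, so neither gene could be checked in that way.

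The lowest members in bulk were, besides these, MRPL53, MRPS24, MRPL23 and MRPS6. MRPL53 was listed at 0 in each bulk library and at 0 to 5.96 coding TPM in sorted libraries, with at most 6 reads. MRPS24 had 0, 0.0900 and 0.709 in bulk and 2.59 to 11.2 in sorted libraries, with 6 to 57 reads. MRPL23, at the exit of the peptide tunnel, had 0 to 0.710 in bulk and 0.31 to 3.70 in sorted. The other low members of sorted libraries were MRPS36 with 8.76 ± 3.29 and MRPL45, which helps to anchor the ribosome to the inner membrane, with 9.51 ± 2.44. In RefSeq, MRPS24 lies wholly inside a same-strand read-through gene and 47.1% of MRPS6 is overlapped by SLC5A3, so reads of those loci could have been counted elsewhere. Of the 7 members with a bulk mean under 1 TPM, a limit chosen after the values were seen, 2 overlapped a protein-coding gene, against 16 of the other 71.

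Between cell-cycle fractions no member passed the test on TPM as deposited. The members' summed level averaged 5821 ± 852 coding TPM in G1, 5454 ± 899 in S1, 5905.5 ± 1223 in S2, 6076 ± 1073 in S3, 6312 ± 970.5 in S4 and 5997 ± 955 in G2 (SD, n = 2 each). On coding TPM S1 was the lowest and S4 the highest fraction in both replicate numbers. Replicate 3 had 6089 in S1 and 6998 in S4, and replicate 2 had 4818 in S1 and 5626 in S4. On TPM as deposited S1 was again the lowest in both, but S4 was the highest in neither. There the highest was G2 in replicate 3 (1035, S4 954) and G1 in replicate 2 (812, S4 633). The SDs hold the gap between the replicate numbers, which every fraction shared, and no test was made on the sums. Of the 73 members that averaged at least 5 coding TPM, the fraction with the highest mean was G1 for 14, S1 for 7, S2 for 8, S3 for 17, S4 for 17 and G2 for 10. The difference between a member's highest and lowest fraction had a median of 0.45 log2 units and reached 1.24 at most.

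**Figure D2:**
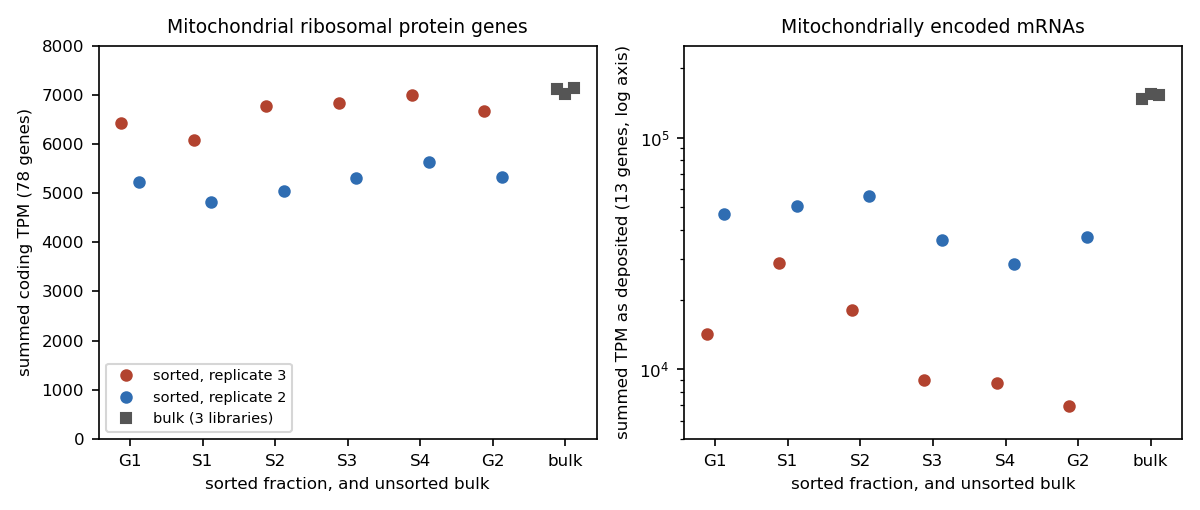
The left panel gives the summed coding TPM of the 78 members in each library, and the right panel the summed TPM of the 13 mitochondrially encoded mRNAs on a log axis, both by fraction with bulk at the right. In the left panel replicate 3 stands above replicate 2 in each of the 6 fractions (6089 to 6998 against 4818 to 5626) and under it in each fraction for the mitochondrial mRNAs.

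For any difference among the 6 fractions, limma on log2(TPM + 1) with Benjamini-Hochberg adjustment over 17022 genes called 0 of 72 members tested, beside 0.0176% of all genes, and 0 members had an unadjusted p under 0.05. In G2 against G1 it called 0 of 72, beside 0.00587% of all genes, and 0 members had an unadjusted p under 0.05. In S against G1, with S1 to S4 averaged, it called 0 of 72, beside 0.0% of all genes, with 2 members at an unadjusted p under 0.05. For the slope from S1 to S4 it called 0 of 72, beside 0.0% of all genes, with 1 member at an unadjusted p under 0.05. The read counts with voom also called 0 in each of these comparisons, with 1, 1, 1 and 3 members at an unadjusted p under 0.05. Median-ratio scaling also called 0 members in each, beside 0.0177%, 0.0059%, 0.0118% and 0.0% of all genes. A replicate block on coding TPM, chosen after seeing the data, called 1 member for any difference (MRPS21, adjusted p = 0.0437, beside 1.3% of all genes), 0 in G2 against G1 (0.294%), 0 in S against G1 (1.38%) and 2 for the slope (MRPL24 and MRPS21, beside 1.85%). The same block on read counts with voom called 0 in each, beside 0.448%, 0.13%, 0.979% and 0.773% of all genes. The median difference of members was 0.01 in G2 against G1 (all genes -0.08), -0.17 in S against G1 (all genes -0.20) and 0.07 per fraction along S1 to S4 (all genes 0.04). Taken within replicate 3, G2 against G1 had a median of 0.33 over members (all genes 0.23). Taken within replicate 2, it had -0.36 (all genes -0.39). On the coding TPM scale these medians were 0.08 and -0.00. The median standard error of a member was 0.36 in G2 against G1, 0.28 in S against G1 and 0.11 for the slope. In simulated data, changes of 1 log2 unit were called in 0% of changed genes for G2 against G1 and 10% for S against G1. Changes of 2 log2 units were called in 32% and 52%. For the slope, 1 log2 unit per fraction was called in 76%. Changes of single members, large ones included, could therefore be missed in G2 against G1 and in S against G1.

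The differences below, on TPM as deposited, did not pass and are given as values. MRPL12, whose product forms the flexible stalk that recruits translation factors and also binds mitochondrial RNA polymerase, had the largest difference of S against G1 (-1.06 ± 0.41, SE). Its coding TPM was 42.5 and 61.2 in G1 (replicates 3 and 2), 19.3 and 34.6 in S1, 25.1 and 20.4 in S2, 19.4 and 24.3 in S3, 14.1 and 42.7 in S4, and 10.95 and 55.1 in G2. Its libraries therefore overlapped between fractions, and the 2 libraries of G2 were the lowest and the second highest of the 12. MRPL12 rested on 10 to 57 reads per sorted library. MRPS28, the counterpart of bacterial S1, differed by -0.83 ± 0.29 in S against G1 and by -0.82 ± 0.37 in G2 against G1. MRPS28 had 50.9 and 37.5 coding TPM in G1 and 10.8 to 37.4 across S1, S2, S3 and S4, and it lies wholly inside a read-through gene with TPD52. Larger negative differences in S were otherwise seen in MRPL55 (-0.67 ± 0.34), MRPL36 (-0.46 ± 0.22), MRPS30 (-0.44 ± 0.26) and MRPS2 (-0.43 ± 0.27). The largest positive ones were MRPL51 (0.27 ± 0.23), MRPL48 (0.25 ± 0.22) and MRPL27 (0.23 ± 0.43).

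In G2 against G1 the largest positive differences were those of MRPL11, of the stalk base (0.40 ± 0.36), MRPL48 (0.40 ± 0.27) and MRPL13 (0.40 ± 0.31). The largest negative ones after MRPL12 (-0.88 ± 0.52) and MRPS28 were MRPL14 (-0.46 ± 0.30) and MRPL54 (-0.41 ± 0.42). Along S1 to S4 the steepest slope was that of MRPL24, a large-subunit protein, at 0.30 ± 0.10 log2 units per fraction. MRPL24 had 39.4 and 42.5 coding TPM in S1 (replicates 3 and 2), 104 and 68.4 in S2, 80.8 and 64.2 in S3 and 90.8 and 90.6 in S4. Both S1 libraries were below every library of S2, S3 and S4. MRPS21 followed with 0.24 ± 0.12, and the most negative slope was that of MRPL41 (-0.10 ± 0.11). MRPL58, a peptidyl-tRNA hydrolase built into the large subunit, had 99.8 and 77.1 coding TPM in G2 and 68.6 and 87.0 in G1. MRPL3, whose product reaches towards the peptidyl transferase centre, had 122 and 111 in G2 and 113 and 92.9 in G1.

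**Figure D3:**
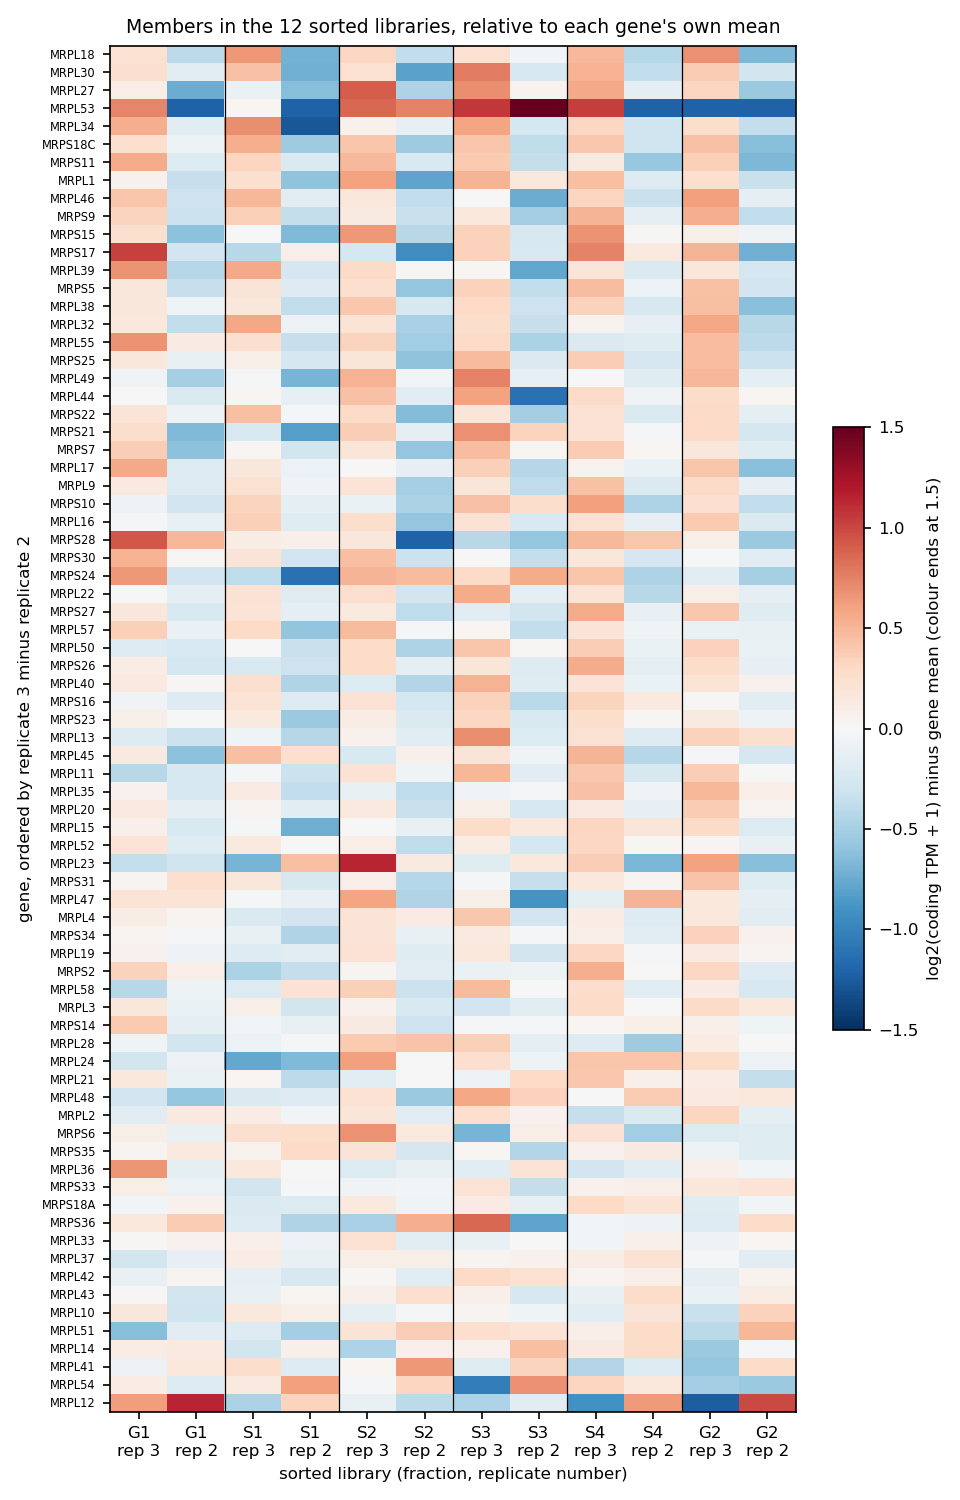
Rows are the 76 members with a mean of at least 1 coding TPM over the sorted libraries, ordered by replicate 3 minus replicate 2, and columns are the 12 sorted libraries by fraction, replicate 3 left of replicate 2. Colour is log2(coding TPM + 1) minus the gene's own mean, red for higher and blue for lower. Most rows alternate between red in replicate 3 and blue in replicate 2, while MRPL12 at the bottom runs the other way.

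Members differed between the replicate numbers, and nearly all that passed were higher in replicate 3. With the fraction as a block, limma with Benjamini-Hochberg adjustment called 24 of 72 members (33.3%), beside 25.0% of 17022 genes. Of these 23 were higher in replicate 3, beside 18.0% of all genes, and 1 was lower, beside 6.99%. The median difference of members was 0.33, against 0.16 over all genes. Coding TPM called 47 of 76 (45 higher), beside 45.9% of all genes (33.6% higher and 12.3% lower). Median-ratio scaling called 21 higher and 3 lower, beside 15.1% and 17.8%, and read counts with voom 23 higher and 3 lower (37.1% of all genes called, 18.4% higher and 18.7% lower). Of the calls on TPM as deposited, 20 of the 23 higher and the 1 lower were called the same way in all 4 scalings. The count was 10 to 15 without either library of S1, S2, S4 or G2, beside 2458 to 3190 of all genes called. It was 18 or 19 without one of S3 (3502 and 3537 genes), and 31 without one of G1 (4240 and 4260 genes). These fits tested 16931 to 17129 genes. Without S4 replicate 2, 10 of 72 members and 2458 of 17129 genes were called, so the members' share was not above that of all genes there. On TPM as deposited the median difference of members inside a fraction was -0.00 in G1, 0.22 in S1, 0.35 in S2, 0.19 in S3, 0.52 in S4 and 0.68 in G2, and protein-coding genes had -0.10 in G1 and 0.55 in G2. On coding TPM it was 0.28 in G1, 0.33 in S1, 0.46 in S2, 0.39 in S3, 0.33 in S4 and 0.35 in G2, and protein-coding genes had 0.13 to 0.22.

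MRPL18, a large-subunit protein of the central protuberance, had the largest difference, 0.84 ± 0.21 (limma, adjusted p = 0.0203). In order from G1 to G2, replicate 3 held 18.0, 21.3, 19.5, 16.4, 23.2 and 30.2 TPM of it, against 14.3, 8.65, 12.4, 15.3, 10.1 and 8.74 TPM for replicate 2. Every replicate 3 library was above every replicate 2 library. MRPL27, close to the peptidyl transferase centre, differed by 0.81 ± 0.15 and MRPL30 by 0.77 ± 0.14. MRPL30 had 7.57 to 10.2 TPM in replicate 3 and 3.52 to 6.93 in replicate 2, also without overlap. MRPS18C (0.70 ± 0.16), MRPL34 (0.67 ± 0.17) and MRPS9 (0.67 ± 0.14) came next. Among the 23 higher members, 20 were higher in 6 of 6 fractions.

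MRPL12 was the 1 member called lower in replicate 3 (-0.67 ± 0.20, limma, adjusted p = 0.0403). In order from G1 to G2, replicate 3 held 5.38, 2.16, 3.25, 2.23, 1.92 and 1.70 TPM of it, against 9.51, 4.06, 2.71, 3.16, 4.80 and 6.38 TPM for replicate 2, and it was lower in 5 of 6 fractions. Leaving out 1 library left 0 members called lower, apart from either library of S2, which left 1. Of all genes, 807 to 1249 were called lower in these fits. MRPL10, which holds MRPL12 on the ribosome, differed by -0.06 ± 0.10 and did not pass. MRPS2 (0.22 ± 0.17), MRPL3 (0.21 ± 0.13), MRPL11 (0.33 ± 0.17), MRPL58 (0.21 ± 0.20), MRPS28 (0.37 ± 0.17) and MRPS18A (0.06 ± 0.12) did not pass either, whereas MRPS30 did, at 0.41 ± 0.12. By origin, 7 of 13 tested small-subunit members with a bacterial counterpart were called higher, and 2 of 10 mitochondrion-specific ones. These 10 include MRPS36 by its name. In the large subunit 7 of 28 with a counterpart were called higher, and 7 of 21 without. These counts stand beside 18.0% of all genes, and differences between the classes were not tested.

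**Figure D4:**
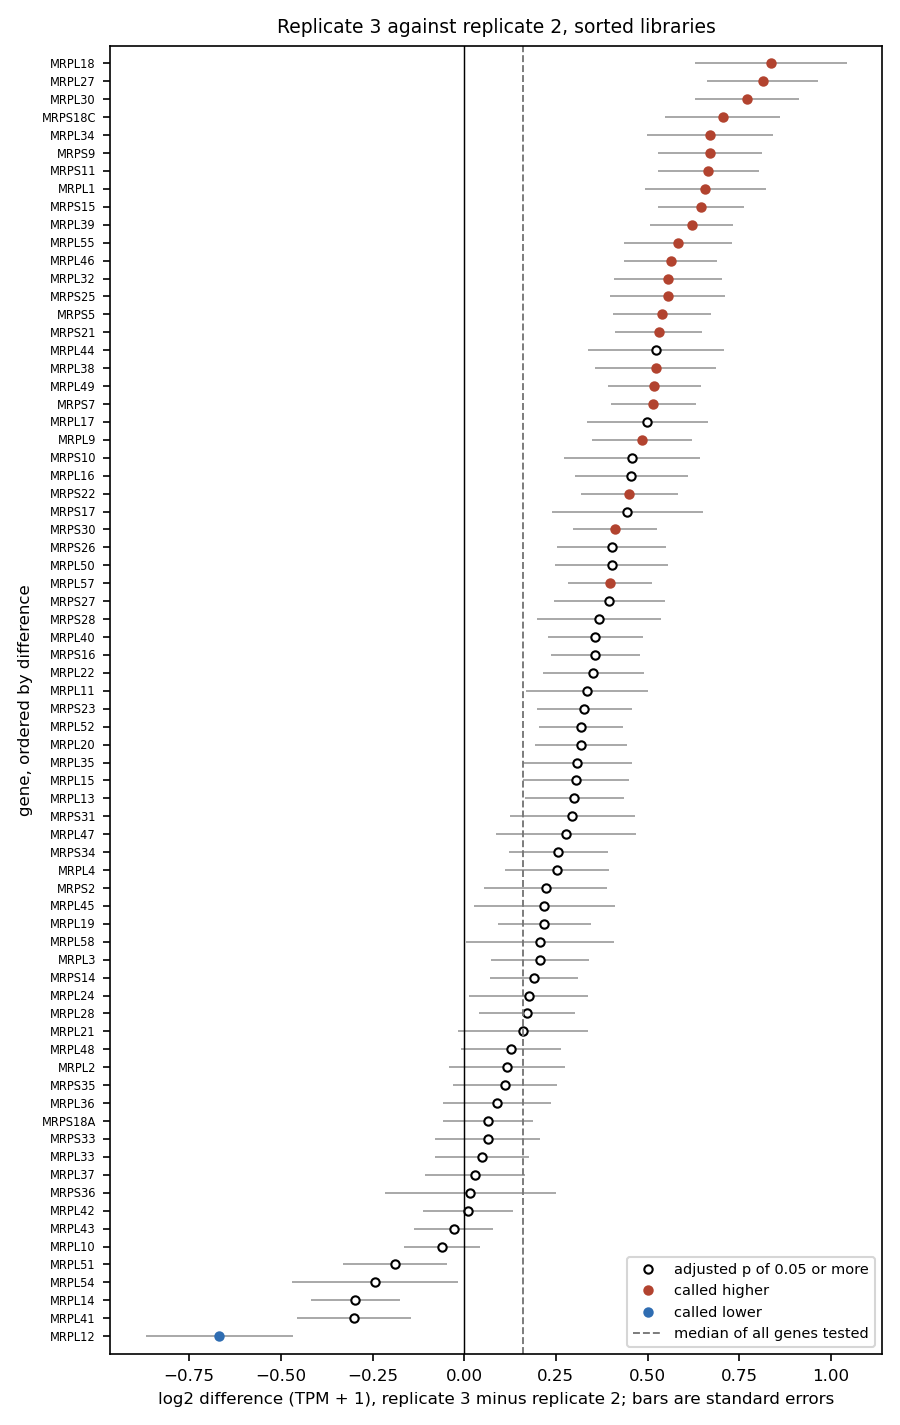
Points are the log2 differences of the 72 tested members, replicate 3 minus replicate 2 on log2(TPM + 1) with the fraction as a block, bars are standard errors and filled points passed. All but 1 of the filled points lie right of 0, and the dashed line is the median of all genes (0.16).

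The mRNAs that the mitoribosome translates were lower in replicate 3. On TPM as deposited, as among the members on that scale, most other nuclear genes of mitochondrial translation did not pass. Nearly all that did were higher in replicate 3. Of 13 mitochondrially encoded mRNAs, 13 were called lower in replicate 3, at a median of -1.70, from MT-ND4L (-2.09 ± 0.18) to MT-ND6 (-0.99 ± 0.25). They summed to 6930 to 28888 TPM in replicate 3 and 28628 to 56067 in replicate 2. Of 23 tested assembly factors 7 were called higher and 0 lower, beside 18.0% and 6.99% of all genes, among them MTERF3 (0.81 ± 0.18), MTERF4 and RPUSD4, which act on mitochondrial ribosomal RNA. Of 16 translation factors 5 were higher and 0 lower, led by GUF1, a back-translocase related to bacterial LepA (0.91 ± 0.11), GFM2 (0.80 ± 0.12), a ribosome recycling factor, and the initiation factor MTIF2 (0.66 ± 0.11). Of 15 mitochondrial aminoacyl-tRNA synthetases 3 were higher, among them RARS2 (0.72 ± 0.13), and 1 was lower, IARS2 (-0.58 ± 0.12). Among 5 subunits named outside the MRP series, DAP3 (0.63 ± 0.13) and PTCD3 (0.50 ± 0.13) were higher. The 71 tested cytosolic ribosomal proteins split, 7 higher and 9 lower, with a median of -0.08, and median-ratio scaling gave 6 higher and 43 lower. HepG2 markers were called lower in 6 of 7. The part that the mitochondrial mRNAs, the HepG2 markers or the depth of a library have in the members' difference was not tested.

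Set against bulk, the sorted libraries had the members at a lower median difference than other protein-coding genes, and single members ran far in both directions. In pooled RNA, fewer cells with a transcript and less of it per cell cannot be told apart. On coding TPM, limma with Benjamini-Hochberg adjustment called 48 of 76 members (20 higher and 28 lower in sorted), beside 71.6% of 13139 protein-coding genes (55.1% higher and 16.5% lower). The median of members was -0.08, against 0.79 over all protein-coding genes. Every sorted library was above every bulk library in 18 members, beside 46.5% of all genes, and below in 25, beside 14.6%. The 18 include members that passed the filter through the sorted libraries alone, such as MRPS24, and were not counted again without them. The summed level of members was 4818 to 6998 coding TPM in sorted libraries and 7024 to 7134 in bulk. Inside replicate 3 the median was 0.09 (all genes 0.86), and inside replicate 2 it was -0.25 (all genes 0.70).

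The split between directions depended on the scaling, so members are best read relative to other genes. Median-ratio scaling gave 14 higher and 53 lower of 76, beside 36.2% and 33.8% of all genes (70.0% called), with a median of -0.83 (all genes 0.11). Read counts with voom gave 15 higher and 55 lower, beside 39.0% and 36.7% (75.6% called), with -0.87 (all genes 0.09). The TPM as deposited gave 2 higher and 64 lower of 72, beside 23.1% and 57.8% (80.9% called), with -2.59 (all genes -0.99). There the background was 17174 genes of any type, non-coding ones included. In the other scalings it was protein-coding genes alone, so the distance of members from it is not like for like. All 28 members called lower on coding TPM were called lower in each of these 4 scalings. Of the 20 called higher, 2 were higher in all 4, MRPS5 and MRPL46, and 9 members were called in opposite directions under different scalings. The 20 include MRPL53, MRPS6 and MRPS24, which fell under the filter on TPM as deposited and so were not tested there. Of the 76 members tested, 5 had a bulk mean under 1 coding TPM and so passed the filter through the sorted libraries alone. Without these 5, 16 of 71 were called higher.

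MRPS36 had the largest deficit, -2.57 ± 0.31 (limma, adjusted p = 1.48e-05), with 4.37 to 15.9 coding TPM in sorted libraries and 44.2, 57.8 and 62.4 in bulk. Its sorted values rested on 5 to 29 reads per library. MRPL10, of the stalk, followed at -2.08 ± 0.15, with 47.1 to 75.95 in sorted and 253 to 258 in bulk. MRPL54 (-1.94 ± 0.27, on 8 to 66 reads per sorted library), MRPL51 (-1.73 ± 0.17), MRPS35 (-1.69 ± 0.13) and MRPL14 (-1.44 ± 0.15) came next. In each of these 6 genes sorted and bulk libraries did not overlap. Of the core proteins, MRPS2 (-1.35 ± 0.14), MRPL3 (-0.96 ± 0.12), MRPL11 (-0.55 ± 0.17) and, among the added proteins, MRPS30 (-0.71 ± 0.18) were also lower.

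MRPS5, a small-subunit protein near the mRNA entry site, had the largest excess, 3.13 ± 0.24 (limma, adjusted p = 3.54e-07), with 23.4 to 49.2 coding TPM in sorted libraries and 2.79 to 3.88 in bulk. MRPL46 differed by 3.02 ± 0.25, with 15.95 to 42.5 in sorted and 2.38 to 2.54 in bulk. Its start lies 320 bases from that of MRPS11, which had 27.1 to 65.4 in sorted and 17.1 to 18.1 in bulk and differed by 1.28 ± 0.27. MRPS25 differed by 2.94 ± 0.22, with 49.5 to 105 in sorted and 8.13 to 9.68 in bulk. MRPL52 differed by 2.67 ± 0.14, with 168 to 273 in sorted and 31.5 to 35.4 in bulk. MRPL38 (2.41 ± 0.25) and MRPS24 completed the 6 largest. MRPS24 had almost no reads in bulk and passed the filter through the sorted libraries alone, so its excess carries no weight here. MRPL12 was higher as well (2.16 ± 0.44), with 10.95 to 61.2 in sorted and 3.02 to 8.02 in bulk, so the stalk pair MRPL10 and MRPL12 moved in opposite directions on this scale. On TPM as deposited MRPL12 differed by -0.17 and did not pass. MRPS28 (1.61 ± 0.25), MRPS18C (0.96 ± 0.30) and MRPS34 (0.41 ± 0.12) were called higher on coding TPM, but these 3, and MRPS11 (-1.13), were called lower on TPM as deposited. MRPS26 (0.26 ± 0.16), MRPS18A (-0.01 ± 0.09) and MRPL58 (-0.11 ± 0.17) did not pass on coding TPM.

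The counted lengths of the members with the largest excess ran long in part, with 18309 bases for MRPS25, 13738 for MRPS5 and 6402 for MRPL46, but 3213 for MRPL52 and 1009 for MRPL12. Over all 76 members length and the log2 difference correlated with r = 0.23 as a description. The median difference was -0.11 in the 36 shortest members, -0.01 in the 27 of middle length and -0.17 in the 13 longest, and all protein-coding genes had 0.70, 0.59 and 0.91 in the same length classes.

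**Figure D5:**
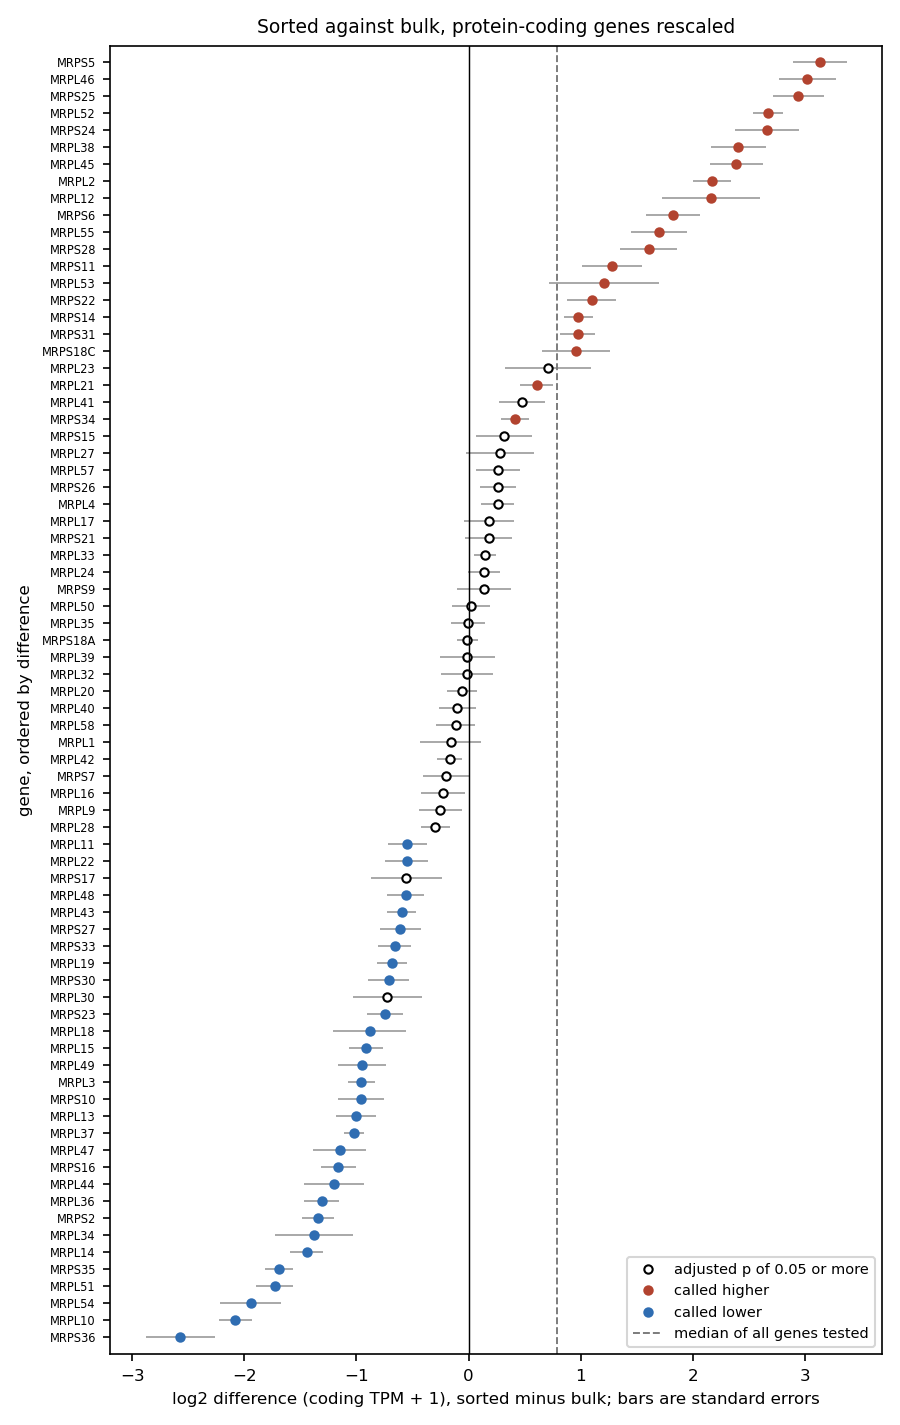
Points are the log2 differences of the 76 tested members, sorted minus bulk on log2(coding TPM + 1), bars are standard errors and filled points passed. Members run from MRPS36 (-2.57) to MRPS5 (3.13), and most lie left of the dashed line, the median of all protein-coding genes tested (0.79).

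Small-subunit members with a bacterial counterpart had a median of 0.32 (7 higher and 3 lower of 15) and those without -0.17 (4 and 5 of 10). Large-subunit members with a counterpart had -0.25 (3 and 12 of 29) and those without -0.06 (6 and 8 of 22). By its name MRPS36, called lower, is counted as a small-subunit member without a counterpart, although it is now known as part of another complex. Without the 5 members that passed the filter through the sorted libraries alone, these were 0.18 (5 and 3 of 13), -0.17 (4 and 5 of 10), -0.27 (3 and 12 of 28) and -0.11 (4 and 8 of 20), a count added after seeing the data. Genes of mitochondrial translation that are not part of the mitoribosome had medians near that of all protein-coding genes (0.79). On coding TPM, counts in these lists and in the classes above stand beside 55.1% higher and 16.5% lower of all protein-coding genes. Assembly factors had a median of 0.88 (16 higher and 4 lower of 25), translation factors 0.61 (7 higher and 0 lower of 16) and mitochondrial aminoacyl-tRNA synthetases 0.75 (12 higher and 1 lower of 15). Median-ratio scaling gave 9 higher and 9 lower, 3 and 5, and 5 and 3 in these lists, and TPM as deposited gave 0 higher in each. Examples are METTL17, an assembly factor of the small subunit, with 269 ± 55.1 coding TPM in sorted and 64.9 ± 1.59 in bulk, and AARS2, which charges the alanine tRNA, with 218 ± 45.0 and 32.3 ± 1.63 (SD, n = 12 and 3). TUFM, the elongation factor that delivers tRNA, averaged 794 ± 68.0 in sorted and 635 ± 21.7 in bulk. The 75 tested cytosolic ribosomal proteins had a median of -1.83, with 5 higher and 67 lower, among them RPL7 at 178 ± 18.1 in sorted and 1884 ± 63.1 in bulk. Under each of the 4 scalings the median of members lay above that of the cytosolic ribosomal proteins and below that of all genes.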

How the data were processed

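Per the labels' protocols, RNA of sorted cells went through the SMARTer stranded total RNA kit and bulk RNA through TruSeq stranded mRNA. Tools in the submitters' processing notes are HISAT2, cutadapt, Trimmomatic, SAMtools and BWA, with hg38. Which counting program and gene annotation were used is not given in the sources used. The deposited values are log2(TPM + 1), since their back-transforms sum to 1000000 in all 15 libraries. TPM had been assumed, and the planned tests were kept. Of the identifiers 61481 had a symbol, and positions and promoters come from RefSeq GRCh38.p14. Repli-seq samples (18) were not used here.

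Members and lists were chosen with earlier results of these data known. limma 3.58.1 in R 4.3.3 tested genes averaging at least 1 TPM (intensity trend, pseudocount 1, Benjamini-Hochberg adjustment, threshold 0.05), so fold changes of low genes are understated. Named were the 10 highest and 6 lowest members, up to 6 of the largest differences in each direction (fewer between fractions) and 12 fixed genes, with examples of the lists.

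Read counts were recovered from the steps of the TPM values for 50053 of 50310 genes and 76 of 78 members (counts whole within 0.02), and tested with voom as an alternative. The scripts were tested on simulated data.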

Additional observations from a re-analysis of the deposited data

How the results depend on the processing

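A pseudocount of 0.1 left 23 calls between replicate numbers (4132 of 17022 genes) and 48 between sorted and bulk (9473 of 13139 genes). Among the sorted fractions, no member was called without a replicate term under any scaling, filter or left-out library. The 2 libraries of a fraction share their numbers with all other fractions, and deviations of same-numbered libraries from their fraction means correlated with r = 0.31 to 0.38 over 15 pairs of fractions, but only 2 numbers exist. The replicate block as planned called 0 members in each of the 4 comparisons. Together with protein-coding rescaling, an alternative chosen after seeing the data, it called 1 member for any difference (MRPS21; 1.3% of all genes) and 2 for the slope (MRPL24, 0.32 ± 0.06, and MRPS21, 0.23 ± 0.05; 1.85% of all genes). The median of G2 against G1 lay between -0.36 and 0.33 without 1 library, at -0.36 without G2 replicate 3 and 0.33 without G2 replicate 2.

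For replicate 3 against replicate 2, the 24 calls became 7 of 78 without the filter on low values (1907 of 64649 genes). They became 47 of 76 after protein-coding rescaling (45.9% of all genes), and 10 to 31 without 1 library (2458 to 4260 genes). For sorted against bulk the median of -0.08 became -2.59 on TPM as deposited, -0.83 with median-ratio scaling, -0.87 in read counts with voom and -0.86 in those counts with the replicate block, and the cause was not tested. The planned replicate block left 48 calls there, beside 71.6% of all protein-coding genes. The spread between the libraries of a fraction limits what can be called. Levels under about 1 TPM rest on few reads, as do some higher ones in sorted libraries, such as those of MRPS36 and MRPL54.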

Other observations

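Relatives that share a member's symbol were outside the set. The 80 listed pseudogenes summed to 22.0 TPM in the mean sorted library and 13.4 TPM in bulk, and 24 of them were at 0 everywhere. MRPL37P1 averaged 4.59 TPM in sorted and 0.217 in bulk, and MRPS31P5 (ENSG00000291010) averaged 2.86 and 0.715. Reads of such near-identical copies may have been divided with their parent genes, so values of MRPL37 and MRPS31 are uncertain to that degree.

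The antisense transcript MRPL20-AS1 averaged 9.74 TPM in sorted libraries (6.54 to 12.5) and 49.3 TPM in bulk (47.9 to 51.9). The divergent transcript MRPL20-DT averaged 8.64 TPM in sorted (5.04 to 13.4) and 14.5 in bulk (13.3 to 15.4). MRPL20 itself had 172 to 711 reads in sorted libraries and 1193 to 1433 in bulk, and no source used here says whether the counting used strand.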
